A study of Homo sapiens with 48 samples.

Results

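The messenger RNA of senescent SK-MEL-103 cells with both mitofusins silenced was compared directly with that of the same cells with MAVS silenced. SK-MEL-103 is an established human melanoma line. The 6 libraries compared are those whose labels give doxorubicin with the siRNA pair siMFN1+2 (3 libraries) or with siMAVS (3 libraries), of 48 libraries in the whole series. Neither group contains a control siRNA, so each difference below is the effect of one silencing minus that of the other. In both groups cells received the small interfering RNA (siRNA) on day -1, then doxorubicin at 200 nM for 48 h, and RNA was taken on day 7. Doxorubicin damages DNA and drives cells into senescence, a lasting arrest with secretion of inflammatory proteins. The other SK-MEL-103 libraries of this experiment, which share the estimate of the spread, carried a control siRNA, siMFN1 or siMFN2 with doxorubicin, or a control siRNA in proliferating cells, 3 libraries each. siRNA lowers a transcript without removing the gene, the cells are a single line, and the labels do not say whether the 3 libraries of a group came from separate cultures, so the p-values measure only the spread between these libraries, which may be technical.

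MFN1 and MFN2 are GTPases of the outer mitochondrial membrane that tether and fuse mitochondria. MAVS is an adaptor on the same membrane: RIG-I and MDA5, sensors of cytosolic RNA, act through it to switch on interferon and NF-kB target genes. The mitochondrial genome is a small circle whose heavy and light strands are each transcribed as long precursors, cut into 13 mRNAs for subunits of the respiratory chain, 2 ribosomal RNAs and the tRNAs. Except for ND6, all 13 mRNAs come from the heavy-strand transcript.

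Pieces of the mitochondrial genome have been copied into nuclear chromosomes, and a nearly intact one lies on chromosome 1. A pair of its pseudogenes is among the genes called below, so a stretch of each is shown with its parent gene to show how little separates them. The sequences are GENCODE 29 transcripts on GRCh38, all on the plus strand, 5′ to 3′. The stretch covers bases 75 to 164 of MT-CO1 and of MTCO1P12, and bases 1 to 90 of MT-ATP6 and of MTATP6P1. Capitals mark the single base that differs within the 90 bases, G120A in the first pair and G19A in the second, with positions counted from 1 at the 5′ end of the mitochondrial gene and its base given first.
MT-CO1: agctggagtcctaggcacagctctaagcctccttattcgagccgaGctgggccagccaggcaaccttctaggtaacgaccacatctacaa
MTCO1P12: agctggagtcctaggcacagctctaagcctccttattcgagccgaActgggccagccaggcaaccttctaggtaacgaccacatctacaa
MT-ATP6: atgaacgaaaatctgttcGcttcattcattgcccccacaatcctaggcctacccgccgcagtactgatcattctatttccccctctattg
MTATP6P1: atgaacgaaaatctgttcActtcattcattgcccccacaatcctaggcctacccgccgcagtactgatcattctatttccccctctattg
Over 1542 aligned bases MTCO1P12 (chr1:631074-632616) matched MT-CO1 at 98.7%, and over 681 aligned bases MTATP6P1 (chr1:633696-634376) matched MT-ATP6 at 98.53%. How reads that map to several places were counted is not given in the sources used here, so the counts of these pseudogenes cannot be told apart from reads of the mitochondrial genes.

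The 6 libraries held between 18434699 and 71016644 counts each, and both groups hold 1 deep, 1 middle and 1 shallow library. The third siMAVS library stood apart from its group. Over 9700 expressed genes its root mean square log2 distance to the other 2 was 0.42, against 0.25 and 0.27 for those libraries and 0.14 to 0.28 for the siMFN1+2 libraries. Lineage markers showed a melanoma line with little pigment gene expression. SOX10, a neural crest and melanocyte transcription factor, stood at 413 to 642 CPM (edgeR's cpm, with library sizes scaled by TMM) over the 6 libraries. MITF, the master regulator of pigment cells, lay at 7.46 to 11.4 CPM. TYR, the rate-limiting enzyme of melanin synthesis, had 7 counts in all siMFN1+2 libraries together and 4 in all siMAVS libraries, and the melanocyte antigen MLANA had 2 and 1. Only 5 of 10 fibroblast markers had enough counts to be tested. Their summed level was 69.3 to 78.4 CPM in siMFN1+2 and 67.2 to 84.3 CPM in siMAVS, most of it from LUM, and THY1 had 0 counts in all 6 libraries. Of 15 epithelial, endothelial and leukocyte markers 7 were tested, with sums of 49.4 to 53.2 and 49 to 63.4 CPM. None of these 3 marker lists had a called member.

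In each group the genes targeted by the siRNA that its labels name were lower than in the other group. MFN2 (ENSG00000116688, chr1:11980181-12013514 of GRCh38) stood at 23.3, 27.4 and 20.8 CPM in the 3 siMFN1+2 libraries and at 99.4, 101 and 115 CPM in the 3 siMAVS libraries. The groups lie far apart, and the level with both mitofusins silenced was 22.7% of that with MAVS silenced (log2 fold change -2.14 ± 0.11 SE, adjusted p = 3.44e-09). Here and below log2 fold changes are siMFN1+2 over siMAVS, and adjusted p are from the quasi-likelihood test of edgeR over all genes. MFN1 (ENSG00000171109, chr3:179347692-179394931) was silenced less deeply, at 21.9, 27.4 and 19.3 CPM against 56.9, 60.1 and 53.4 CPM, which is 40.4% (log2 fold change -1.31 ± 0.16 SE, adjusted p = 0.000505). MAVS (ENSG00000088888, chr20:3846799-3876123) measured 189, 197 and 184 CPM with the mitofusins silenced and 51, 59.3 and 89.7 CPM in the siMAVS libraries. Its groups did not overlap either (log2 fold change 1.52 ± 0.15 SE, adjusted p = 0.000126), and the siMAVS library with the most remaining MAVS was the third, the one that stood apart. In the control siRNA libraries with doxorubicin the mean levels were 54.6 CPM for MFN1, 100.1 CPM for MFN2 and 177 CPM for MAVS, close to those of the group in which each gene was not targeted.

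**Figure D1:**
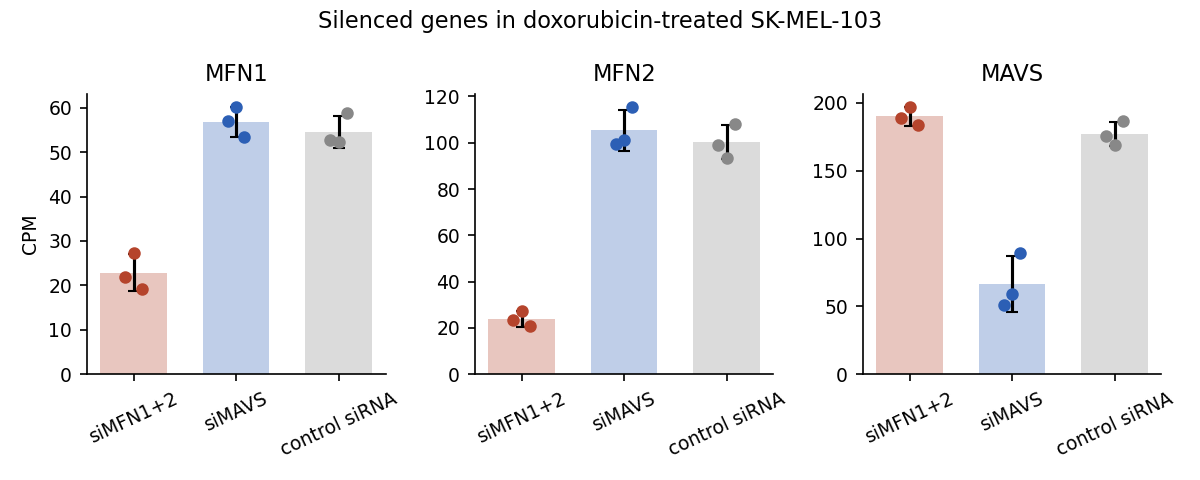
Levels of MFN1, MFN2 and MAVS in CPM in each doxorubicin-treated SK-MEL-103 library (points), with the mean (bar) and SD (line) of 3 libraries for siMFN1+2, siMAVS and the control siRNA. MFN1 and MFN2 are low only under siMFN1+2 and MAVS only under siMAVS, where the third library is the highest at 89.7 CPM.

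Few genes separated the silencings, and 8 of the 18 that did were mitochondrially encoded. Of 17945 genes tested, 18 were called at an adjusted p under 0.05, which is 0.1%. Of these, 12 were lower with both mitofusins silenced (0.0669%) and 6 higher (0.0334%). The 12 lower genes were MFN2, MFN1, 8 of the 13 mitochondrially encoded mRNAs and the 2 nuclear copies shown above. The higher genes were MAVS and 5 others. At an unadjusted p under 0.05, 1134 genes differed (6.32%), of which 550 were lower (3.06%). With the replicate number, which also follows library depth, as a block, 53 genes were called (0.295%), 31 higher and 22 lower (0.123%). All 18 were among them. DESeq2 called 80 genes (0.446%), 48 higher and 32 lower, again with all 18. A fit of the 6 libraries alone, whose estimate of the spread rests on fewer libraries, called only MFN2. Leaving out siMFN1+2 library 1, siMFN1+2 library 3 or siMAVS library 1 brought the count to 10 each time, and without siMAVS library 3, which stood apart, it was 14, with 13 of the 18 among them.

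Beside the silenced genes, the 13 mitochondrially encoded mRNAs formed the only one of the 23 gene lists with called members. In this comparison 8 of 13 fell with both mitofusins silenced (background 0.0669%), none rose, 11 had an unadjusted p under 0.05, and their median log2 fold change was -0.94 beside 0.00 for all genes tested. The 2 groups did not overlap in 11 of the 13, all lower, where 5.07% of all genes were lower without overlap. Leaving out siMFN1+2 library 1, siMFN1+2 library 3 or siMAVS library 1 left 5 called, and without siMAVS library 3 it was 7. In the fit of the 6 libraries alone none of the 13 was called, while their median was still -0.94. Bulk RNA cannot tell fewer cells with a transcript from less of it per cell.

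The genes of complex IV, cytochrome c oxidase, held the 3 most negative log2 fold changes of the 13, though not the smallest adjusted p. MT-CO1 (ENSG00000198804), its catalytic core, measured 2291, 3177 and 2365 CPM in siMFN1+2 and 7729, 6743 and 5707 CPM in siMAVS. Every siMFN1+2 library was far below every siMAVS library (log2 fold change -1.37 ± 0.16 SE, adjusted p = 0.000282). MT-CO2, which takes electrons from cytochrome c, lay at 848, 1127 and 849 against 2698, 2356 and 2159 CPM (log2 fold change -1.35 ± 0.15 SE, adjusted p = 0.000194). For MT-CO3, another mitochondrial subunit of the complex, the values were 742, 957 and 744 against 2799, 2422 and 1687 CPM. Its log2 fold change of -1.50 ± 0.22 SE was the most negative of the 13 (adjusted p = 0.00682). MT-CO3 lost its call when siMFN1+2 library 1, siMFN1+2 library 3 or siMAVS library 1 was left out, with adjusted p up to 0.0800, whereas MT-CO1 and MT-CO2 kept theirs in each of those fits.

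MT-CYB, the only mitochondrially encoded subunit of complex III, had the smallest adjusted p of the 13. It stood at 529, 680 and 543 CPM in siMFN1+2 and at 1731, 1298 and 1204 CPM in siMAVS (log2 fold change -1.27 ± 0.13 SE, adjusted p = 0.000142). Its lowest siMAVS library still held well above its highest siMFN1+2 library.

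The ATP synthase subunits moved less. MT-ATP6, part of the proton channel, measured 617, 795 and 631 CPM against 1472, 1199 and 1258 CPM (log2 fold change -0.94 ± 0.15 SE, adjusted p = 0.0107). It lost its call without siMFN1+2 library 1, siMFN1+2 library 3 or siMAVS library 1. MT-ATP8, a small accessory subunit whose gene shares its last bases with the start of MT-ATP6, did not pass the test, at 49.5, 78.9 and 57.6 against 116, 117 and 109 CPM (log2 fold change -0.88 ± 0.19 SE, adjusted p = 0.126). With the replicate block it was called (adjusted p = 0.0191), the only one of the 13 that the block added.

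Complex I, NADH dehydrogenase, has 7 mitochondrially encoded subunits, of which 3 were called. Whether the subunits differ from each other was not tested. MT-ND5 lay at 550, 710 and 573 CPM against 1483, 1088 and 1572 CPM (log2 fold change -1.18 ± 0.16 SE, adjusted p = 0.00196). MT-ND4 lay at 1353, 1783 and 1402 CPM against 3372, 2643 and 3249 CPM (log2 fold change -1.03 ± 0.14 SE, adjusted p = 0.0016). MT-ND4L, which overlaps the start of MT-ND4 by a few bases, had values of 174, 240 and 184 against 418, 320 and 409 CPM (log2 fold change -0.94 ± 0.16 SE, adjusted p = 0.0178). These 3 genes were called lower, though the call of MT-ND4L was lost when siMFN1+2 library 1 or 3 or siMAVS library 1 or 3 was left out.
The other subunits of complex I did not pass. MT-ND3 stood at 227, 257 and 220 CPM against 478, 448 and 428 CPM, without overlap (log2 fold change -0.94 ± 0.22 SE, adjusted p = 0.183). MT-ND1 stood at 662, 788 and 821 CPM against 1152, 881 and 1095 CPM (log2 fold change -0.46 ± 0.15 SE, adjusted p = 0.539). MT-ND2 was nearer still, at 1016, 1252 and 1190 CPM against 1483, 1162 and 1340 CPM, with overlapping groups and a 95% interval of -0.56 to 0.15 for its log2 difference (adjusted p = 0.902).

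MT-ND6, the single mRNA of the light strand, went the other way in value. It had the fewest counts of the 13 per length, at 35.2 CPM per kb in siMAVS, where MT-CO1 had the most at 4362 CPM per kb. How far selection by poly(A) tail affects the counts of MT-ND6 was not tested. Its libraries held 21.8, 45 and 16.7 CPM in siMFN1+2 and 21, 14.3 and 20.2 CPM in siMAVS. These overlap, the second siMFN1+2 library alone is high, and the difference did not pass the test (log2 fold change 0.60 ± 0.43 SE, adjusted p = 0.894, interval -0.25 to 1.44). The libraries were prepared by poly(A) selection, and the ribosomal RNAs of the mitochondrion have short tails. The effect of this on their counts was not tested either. MT-RNR2 measured 2049, 2400 and 2215 CPM against 3066, 4149 and 3249 CPM (log2 fold change -0.65 ± 0.25 SE, adjusted p = 0.71). MT-RNR1 measured 480, 511 and 439 CPM against 302, 1174 and 277 CPM. The second siMAVS library is alone at the high end, and without it the log2 fold change of MT-RNR1 turned from -0.29 to 0.72 (adjusted p = 0.654).

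**Figure D2:**
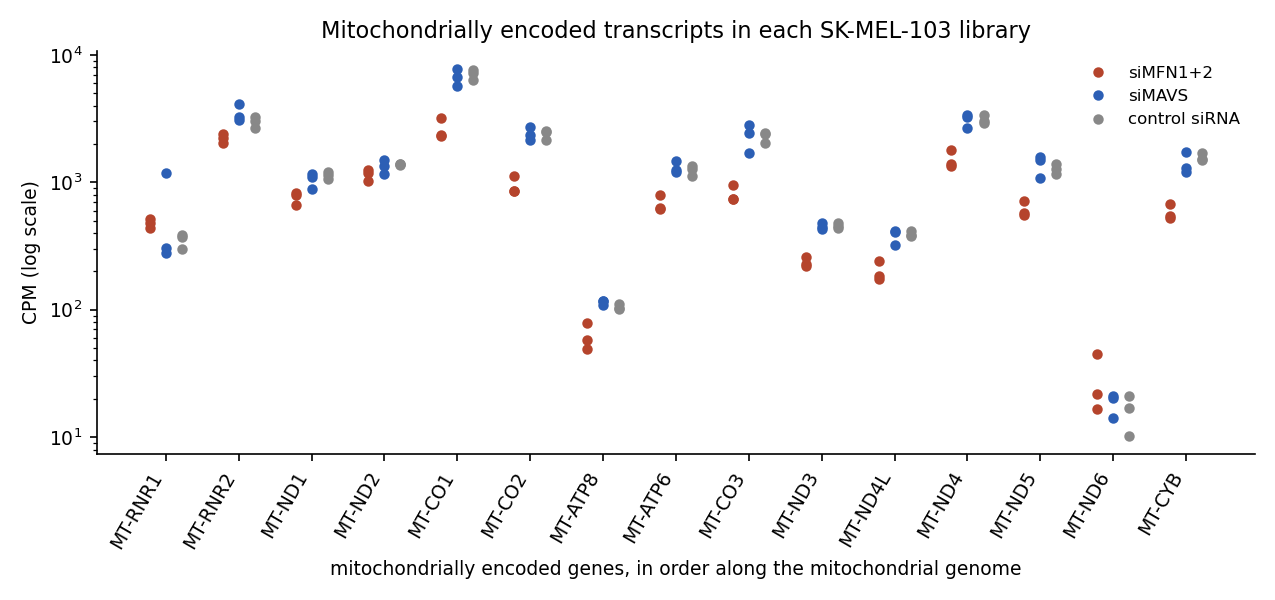
Level of each mitochondrially encoded mRNA and ribosomal RNA in CPM, on a log axis, in each doxorubicin-treated SK-MEL-103 library, ordered along the mitochondrial genome. The siMFN1+2 points lie below all siMAVS points for 11 of the 13 mRNAs, and overlap them for MT-ND2 and MT-ND6.

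Along the heavy strand the differences were not uniform. From its promoter end the order is MT-RNR1, MT-RNR2, MT-ND1, MT-ND2, MT-CO1, MT-CO2, MT-ATP8, MT-ATP6, MT-CO3, MT-ND3, MT-ND4L, MT-ND4, MT-ND5 and MT-CYB. The first 4 of these had log2 fold changes of -0.20 to -0.65 and none was called, whereas the 10 that follow had -0.88 to -1.50 and 8 were called. Whether genes early and late in the precursor differ from each other was not tested.

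The nuclear copies moved with their parents. MTCO1P12 measured 260, 319 and 253 CPM in siMFN1+2 and 854, 709 and 615 CPM in siMAVS (log2 fold change -1.39 ± 0.19 SE, adjusted p = 0.00196), beside -1.37 for MT-CO1. MTATP6P1 measured 117, 151 and 112 against 271, 227 and 230 CPM (log2 fold change -0.94 ± 0.16 SE, adjusted p = 0.0172), beside -0.94 for MT-ATP6. For each 100 counts on MT-CO1 the copy held 10.6 in siMFN1+2 and 10.8 in siMAVS, and for each 100 on MT-ATP6 it held 18.6 in both groups. The ratio between copy and parent thus hardly differed between the groups.

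Summed over the 13 mRNAs, 0.926%, 1.23% and 0.938% of counts were mitochondrial in the siMFN1+2 libraries and 2.52%, 2.08% and 2.11% in the siMAVS libraries. The means were 1.03% ± 0.17 (SD, n = 3) and 2.23% ± 0.245 (SD, n = 3), and all 3 siMFN1+2 libraries were lower. The difference of -1.20 percentage points gave p = 0.1 by a two-sided exact permutation test, the smallest p that 3 libraries against 3 allow. For context, without a test, the same share was 2.24% ± 0.181 (SD, n = 3) with the control siRNA, 2.09% ± 0.263 with siMFN1 alone, 2.10% ± 0.0925 with siMFN2 alone and 0.725% ± 0.0881 in proliferating cells. The siMAVS mean thus lay among the means of those 3 doxorubicin-treated groups, although the first siMAVS library was above all their libraries (highest 2.40%). Every siMFN1+2 library was below the doxorubicin-treated libraries of those groups and above the proliferating ones.

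**Figure D3:**
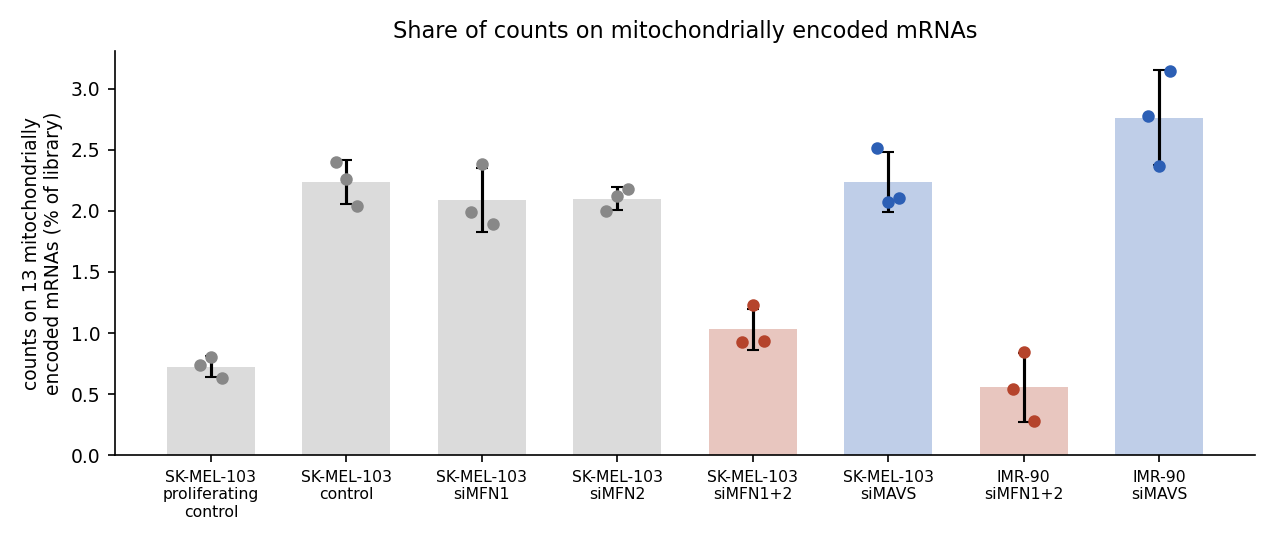
Share of each library's counts on the 13 mitochondrially encoded mRNAs, in percent, as points with the mean (bar) and SD (line) of 3 libraries per group. In SK-MEL-103 the siMFN1+2 libraries hold 0.926% to 1.23% and the siMAVS libraries 2.08% to 2.52%, and in IMR-90 the same 2 groups are also apart.

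No nuclear gene on the lists of mitochondrial function was called, where 0.1% of all genes were, so lists of this size would hold few or none at the background share. None of 31 genes of mitochondrial DNA maintenance and transcription was called. Examples are TFAM, which packages mitochondrial DNA and starts its transcription, at 61.6, 58.3 and 61.3 CPM against 64.7, 65.2 and 76 CPM (log2 fold change -0.18 ± 0.12 SE), and POLRMT, the mitochondrial RNA polymerase (-0.15 ± 0.12 SE). The 57 tested genes of the nuclear-encoded respiratory chain had none called and a median of -0.06, and ATP5F1B, the catalytic ATP synthase subunit, measured 399, 356 and 479 CPM against 435, 406 and 481 CPM. Of these 57, 57 had an approximate 95% interval within 1 log2 unit of 0. The 33 tested genes of mitochondrial dynamics and mitophagy also had none called (median -0.06), with the autophagy receptor SQSTM1 at a log2 fold change of 0.14 ± 0.15 SE. The 42 tested genes of the integrated and mitochondrial stress response, which answers faulty mitochondria or stalled translation, had none called and a median of -0.06. Its central factor ATF4 stood at 222, 216 and 206 CPM against 222, 203 and 183 CPM (log2 fold change 0.08 ± 0.11 SE).

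Among genes downstream of MAVS, none of 44 tested interferon-stimulated genes was called (median 0.00). With 0.1% of all genes called, that count does not set the list apart from the background. At an unadjusted p under 0.05 there was 1 higher (3.25% of all genes) and 2 lower (3.06% of all genes). The groups did not overlap in 5 that were lower (5.07% of all genes) and 1 that was higher (6.78% of all genes). Of the 44, 35 had an interval within 1 log2 unit of 0, so differences of that size remain possible for the rest. ISG15, a ubiquitin-like protein induced by interferon, measured 31.8, 31.3 and 32 CPM in siMFN1+2 and 37.4, 35.5 and 31.3 CPM in siMAVS, with a log2 interval of -0.40 to 0.14. The groups touch at their ends, and the control siRNA libraries held 65.5, 64.6 and 64 CPM, above all 6. IFI6, an interferon-induced protein chosen here after its values were seen, gave 11.6, 12.5 and 16 CPM against 11.3, 11.6 and 10.3 CPM, with 68, 66.7 and 78 CPM in the control libraries. In ISG15 and IFI6 both silencings are thus lower in value than the control by a wider margin than they differ from each other; both would share those control libraries in a comparison with them, and no such test is made here. The most abundant members of the list, LGALS3BP and IFITM3, had log2 fold changes of -0.15 ± 0.14 SE and -0.10 ± 0.11 SE. IFNB1 and CXCL10, an interferon and a chemokine it induces, had 0 counts in all 6 libraries, which allows up to 3 counts in each.

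In the sensing pathway itself, none of 28 tested genes of RIG-I-like receptor and MAVS signalling was called (median 0.00, 28 of 28 intervals within 1 log2 unit of 0). RIGI, the sensor RIG-I, lay at 18.3, 22.8 and 18.8 CPM against 22.8, 25.3 and 25.1 CPM (log2 fold change -0.29 ± 0.12 SE, adjusted p = 0.756). Of 15 tested genes of cytosolic DNA sensing none was called (median -0.01). Their log2 fold changes ran from -0.61 to 1.10, and 13 of the 15 intervals lay within 1 log2 unit of 0. With 0.1% of all genes called, lists of 28 and 15 genes would hold few or none.
Of 21 tested genes of antigen presentation by MHC class I none was called (median -0.06), where 0.1% of all genes were. In value 18 of the 21 were negative. At an unadjusted p under 0.05, 4 were lower (3.06% of all genes) and 0 higher (3.25% of all genes). The groups did not overlap in 3 that were lower (5.07% of all genes) and in 0 that were higher (6.78% of all genes). For the class I chains given next, 1 library weighed heavily on the value. HLA-B, a class I heavy chain, measured 634, 692 and 585 CPM in siMFN1+2 and 857, 892 and 257 CPM in siMAVS. The third siMAVS library was the lowest of the 6, and without it the log2 fold change of HLA-B was -0.46 ± 0.47 SE rather than -0.07 ± 0.50 SE, not called either way. HLA-C, another heavy chain, and B2M, the light chain, were likewise at 258 and 437 CPM in that library, against at least 727 and 844 CPM in the other 2. TAP1, which pumps peptides for loading, gave 135, 147 and 137 CPM against 169, 176 and 153 CPM and a log2 fold change of -0.25 ± 0.10 SE (adjusted p = 0.708).

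The senescence-associated secretory phenotype (SASP), the set of secreted inflammatory proteins, showed no called member either. Of 33 SASP cytokines and chemokines only 19 had enough counts to be tested, with a median log2 fold change of -0.12. With 0.1% of all genes called, a list of this size would hold few or none. In value 15 of the 19 were negative, as were 8811 of all 17945 genes tested. At an unadjusted p under 0.05, 3 were lower (3.06% of all genes) and 0 higher (3.25% of all genes). IL1B, an upstream cytokine of the SASP, stood at 79.7, 101 and 113 CPM against 97.2, 113 and 130 CPM (log2 fold change -0.21 ± 0.14 SE). IL6 and CXCL8, classic SASP cytokines, were at 1.28 to 2.14 and 1.83 to 3.07 CPM in siMFN1+2 and at 1.01 to 1.89 and 1.89 to 3.19 CPM in siMAVS, near the lower end of what could be tested. CCL2, a monocyte attractant, had the wider gap of 2.92, 2.72 and 8.49 CPM against 8.36, 8.98 and 16.1 CPM, but the third siMFN1+2 library lies within the siMAVS range (log2 fold change -1.30 ± 0.49 SE, adjusted p = 0.708). IL32, a cytokine chosen after its values were seen, did not overlap, at 10.7, 10.2 and 13 against 18.4, 16.4 and 14.8 CPM (adjusted p = 0.36). The 35 tested SASP proteases and growth factors had none called (median 0.08), where 0.1% of all genes were. At an unadjusted p under 0.05, 5 of the 35 were lower (3.06% of all genes) and 2 higher (3.25% of all genes). Only 20 of the 35 had an interval within 1 log2 unit of 0, so differences of that size remain possible for the rest. The 23 tested NF-kB targets had none called either (median -0.08). No marker of arrest was called. CDKN1A, the cell cycle inhibitor p21, measured 2077, 2042 and 2022 CPM against 2098, 1999 and 1653 CPM (log2 interval -0.12 to 0.31). MKI67, a proliferation marker, measured 0.884, 0.572 and 4.05 CPM against 0.873, 1.31 and 7.83 CPM, high in the third library of each group (log2 fold change -1.02 ± 1.22 SE, adjusted p = 0.941). At this low level its interval of -3.40 to 1.37 leaves large differences possible in either direction, and with no filter on low counts it was called, again lower in siMFN1+2. The 42 tested genes of cell cycle and DNA replication had none called, where 0.1% of all genes were. None of them had an unadjusted p under 0.05, where 6.32% of all genes did. Only 24 of the 42 had an interval within 1 log2 unit of 0, so differences of that size remain possible for the rest.

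Among the remaining lists, the 29 tested genes of cholesterol biosynthesis had the most negative median, -0.23, with none called, 6 lower and none higher at an unadjusted p under 0.05, where 3.06% of all genes were lower. SREBF2, the transcription factor that drives this pathway, gave 76.2, 73.6 and 95.8 CPM against 104, 107 and 151 CPM (log2 fold change -0.56 ± 0.16 SE, adjusted p = 0.38), and was called with the replicate block (adjusted p = 0.0118). The 27 glycolysis genes had 25 tested and none called, and ENO2, a neuronal enolase, was called only with the block (log2 fold change 0.38 ± 0.16 SE, adjusted p = 0.736 without it and 0.0382 with it). The 25 tested genes of NRF2 and oxidative stress had 3 higher and none lower at an unadjusted p under 0.05, where 3.25% of all genes were higher, among them FTH1, the ferritin heavy chain that stores iron, at 1730, 1445 and 1749 CPM against 1442, 1236 and 1210 CPM (log2 fold change 0.34 ± 0.11 SE, adjusted p = 0.539). None was called among the 29 tested p53 targets (median 0.03), the 37 of lysosome and autophagy (median 0.04) or the 28 of extracellular matrix and contractile genes (median 0.09). The share called over all genes was 0.1%. At an unadjusted p under 0.05, the p53 targets had 4 lower and 1 higher. Lysosome and autophagy had 0 lower and 3 higher, and the matrix and contractile list 1 lower and 2 higher. In all, the 21 lists other than the silenced genes and the mitochondrial mRNAs held 577 distinct tested genes, of which edgeR and DESeq2 called 0. The replicate block called 2, SREBF2 and ENO2. At an unadjusted p under 0.05 there were 55 (9.53%), beside 6.32% of all genes tested.

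**Figure D4:**
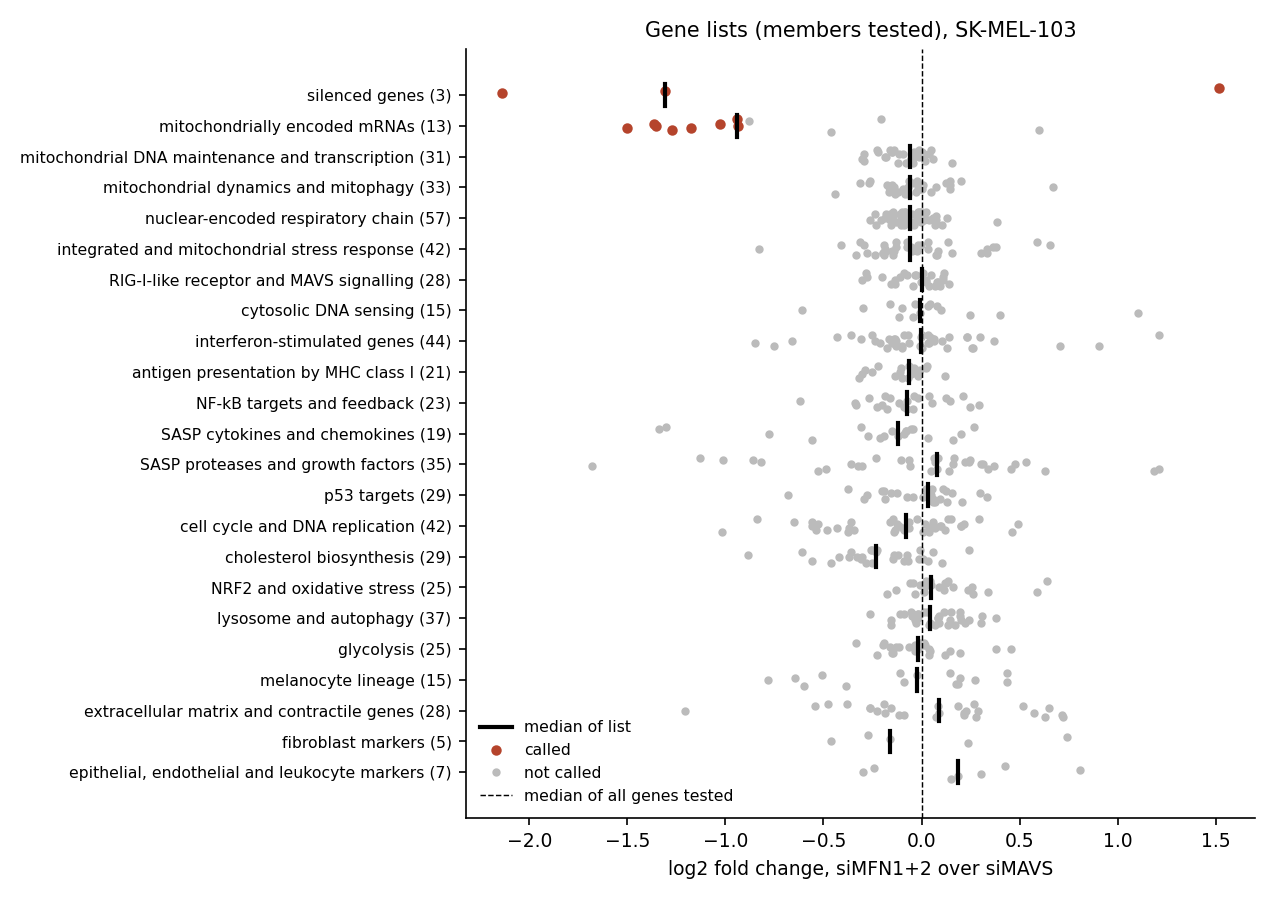
Log2 fold change of every tested member of the 23 gene lists, siMFN1+2 over siMAVS, with called genes in red, each list's median as a black bar and the median of all genes tested as a dashed line. Called genes occur in the silenced genes and in the mitochondrially encoded mRNAs, whose median is -0.94, while the other lists have medians between -0.23 and 0.19.

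Beside MAVS, 5 genes were higher with both mitofusins silenced. TOLLIP, an adaptor that dampens Toll-like and interleukin-1 receptor signalling, measured 112, 111 and 134 CPM against 65.7, 69.1 and 88.1 CPM (log2 fold change 0.68 ± 0.11 SE, adjusted p = 0.0134). The control siRNA libraries held 121, 121 and 130 CPM, so in value the siMAVS libraries are the low ones. GNG7, a G protein gamma subunit, measured 16.6, 18.2 and 18.4 CPM against 10.3, 11.3 and 9.49 CPM (log2 fold change 0.77 ± 0.13 SE, adjusted p = 0.0134), with 10.6 to 13.1 CPM in the control libraries, so here the siMFN1+2 libraries are the high ones.
ARHGEF10L, a guanine nucleotide exchange factor, gave 17.7, 17.1 and 18.6 CPM against 11.4, 11.5 and 8.01 CPM (log2 fold change 0.78 ± 0.13 SE, adjusted p = 0.0212). PLCG1, a phospholipase C activated by growth factor receptors, gave 274, 298 and 229 CPM against 185, 195 and 177 CPM (log2 fold change 0.53 ± 0.10 SE, adjusted p = 0.0428). TRNP1, a scarce nuclear protein gene that falls below the level set for naming, gave 1.81 to 2.66 CPM against 0.796 to 1.03 CPM (log2 fold change 1.28 ± 0.23 SE, adjusted p = 0.0409). Each of these 5 lost its call in at least 3 of the 6 fits that left out 1 library, with adjusted p up to 0.0991 for TOLLIP, 0.0893 for GNG7, 0.150 for ARHGEF10L, 0.278 for PLCG1 and 0.234 for TRNP1. The silenced genes, MT-CO1, MT-CO2, MT-CYB, MT-ND4, MT-ND5 and MTCO1P12 kept their calls in all 6.

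The same contrast exists in IMR-90, a line of fetal lung fibroblasts given the same siRNAs and doxorubicin, and the difference between the lines was tested in 1 fit of 36 libraries. The 13 mitochondrially encoded mRNAs had a median log2 fold change of -2.17 in IMR-90, where 13 of 13 were called, beside -0.94 in SK-MEL-103. MT-CO1 measured 1412, 2050 and 713 CPM with both mitofusins silenced and 8038, 6366 and 8146 CPM with MAVS silenced in IMR-90 (log2 fold change -2.43 ± 0.29 SE). The direction was the same in both lines for 12 of the 13, MT-ND6 being the exception in value. The test of the difference itself called 3 of 20892 genes (0.0144%) and none of the 13, though all 13 had an unadjusted p under 0.05, as had 4.79% of all genes, and the smallest adjusted p among them was 0.314. As shares of counts, IMR-90 libraries held 0.557% ± 0.282 (SD, n = 3) with the mitofusins silenced and 2.76% ± 0.39 (SD, n = 3) with MAVS silenced.
The silencing also differed in depth, and its part in the mitochondrial values was not tested. MFN2 had a log2 fold change of -2.13 in SK-MEL-103 and -3.20 in IMR-90, a called difference of 1.07 ± 0.16 SE (adjusted p = 0.00226). MFN1 had -1.30 and -2.37, a difference that was not called (adjusted p = 0.448). None of 50 interferon-stimulated genes was called as different between the lines, and their medians were 0.00 in SK-MEL-103 and -0.33 in IMR-90. TOLLIP was among the 110 genes called in IMR-90, of 20892 tested. It stood there at 76.1, 82.2 and 76.5 CPM against 55.3, 52.3 and 53.5 CPM (log2 fold change 0.54 ± 0.09 SE, adjusted p = 0.00137, edgeR). Its difference between the lines was not called. GNG7, ARHGEF10L and PLCG1 were not called in IMR-90, and their groups overlapped there. Their log2 fold changes in IMR-90 were 0.22 ± 0.32 SE, 0.25 ± 0.18 SE and 0.05 ± 0.13 SE. GNG7 was scarce in that line, at 0.32 to 0.72 CPM.

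**Figure D5:**
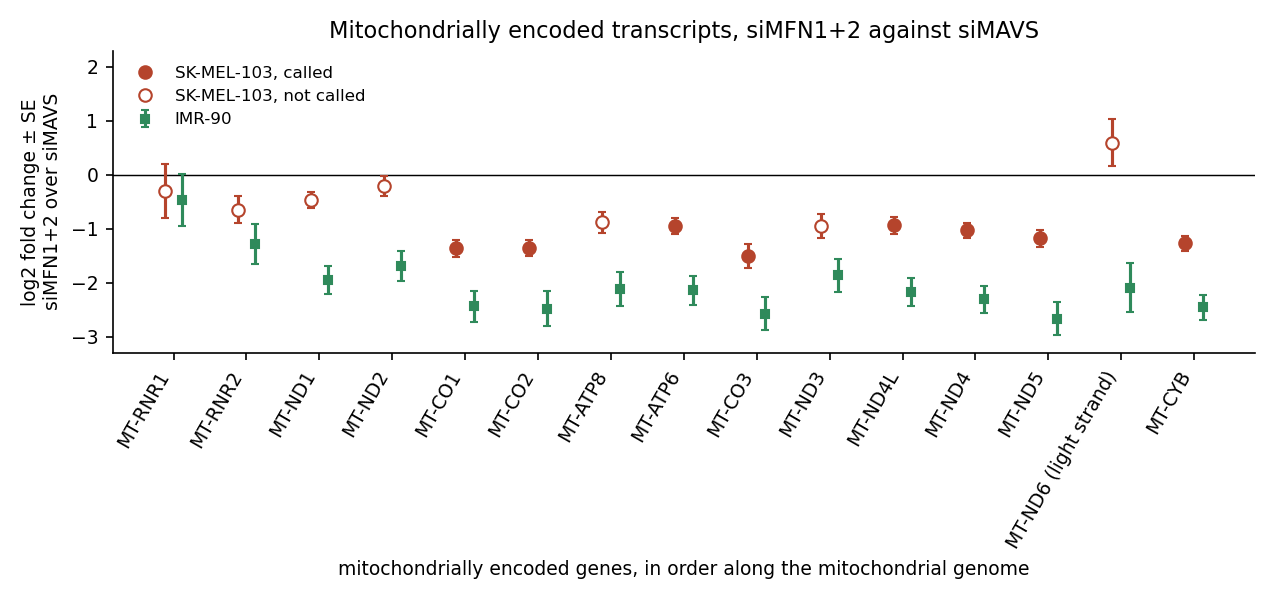
Log2 fold change with its SE, siMFN1+2 over siMAVS, of the mitochondrially encoded genes in their order along the mitochondrial genome, for SK-MEL-103 (circles, filled where called) and IMR-90 (squares). In SK-MEL-103 the filled circles lie between -0.94 and -1.50, and the IMR-90 value of every mRNA is the lower one.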

How the data were processed

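The authors deposited raw counts per gene, whole numbers without normalization, for 48898 genes in 48 libraries. Per the labels' protocols total RNA came from columns and a stranded poly(A) kit was used for the libraries. The submitters' processing notes name Trim Galore 0.6.7, STAR 2.7.10a, featureCounts and GRCh38. The annotation release, strand setting and treatment of multi-mapping reads are not given in the sources used here, nor are siRNA sequences. Symbols were found for 48679 identifiers, and positions are from GENCODE 29.

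The test was that of edgeR 4.0.16 in R 4.3.3 (filterByExpr, TMM, robust quasi-likelihood F test), 1 mean per group over the 18 SK-MEL-103 siRNA libraries, with Benjamini-Hochberg adjustment and a threshold of 0.05. SE is the absolute log2 fold change divided by the root of F, and 95% intervals are 1.96 SE, approximate. DESeq2 1.42.0 was an alternative. The scripts were tested on simulated data. Libraries have no molecular identifiers, so zero limits cover counting error only.

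Replicate numbers come from the titles: same-numbered libraries of the 2 groups deviated together (correlations 0.261, 0.252 and 0.274, other pairs at most 0.0587). Deviations were taken from each group's mean, which by itself lowers the correlations of the other pairs. In every SK-MEL-103 siRNA group library 1 was the deepest and library 3 the shallowest. The block by replicate number therefore cannot be told apart from depth. No pair of libraries in a group was a duplicate (chi-square per degree of freedom at least 16.2).

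Named genes are the 3 silenced genes, 10 fixed markers, up to 10 highest and lowest called protein-coding genes with mean log2 CPM of at least 2, the mitochondrial mRNAs, and members of 23 lists; others are said to be chosen after their values were seen. Members and lists were chosen with earlier results of these data known. Some genes are not reported here.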

Additional observations from a re-analysis of the deposited data

Results flagged for a closer look

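The contrast of siMFN1+2 with siMAVS differed between SK-MEL-103 and IMR-90 for 3 genes, by a test of the difference itself. DSG2, a desmosomal cadherin, stood at 94.8, 90.3 and 90.9 CPM with both mitofusins silenced and 74.4, 86.7 and 83.9 CPM with MAVS silenced in SK-MEL-103, and at 47, 16.4 and 21.2 against 1.57, 2.6 and 1.83 CPM in IMR-90. The difference, SK-MEL-103 less IMR-90, was -3.65 ± 0.53 SE on the log2 scale (adjusted p = 0.00226, edgeR). ARSG, a lysosomal arylsulfatase, stood at 3.81, 3.79 and 4.61 against 4.21, 4.02 and 4.06 CPM in SK-MEL-103 and at 1.68, 1.35 and 1.23 against 7.66, 7.71 and 6.16 CPM in IMR-90, a difference of 2.31 ± 0.35 SE (adjusted p = 0.00331, edgeR). For both genes the change lay in IMR-90, with log2 fold changes of 3.83 for DSG2 and -2.32 for ARSG there, beside 0.17 and -0.02 in SK-MEL-103. MFN2, a target of the siRNAs, was lowered further in IMR-90, with a difference of 1.07 ± 0.16 SE. When only the 12 libraries compared were fitted, DSG2 and ARSG kept their calls (adjusted p = 0.0458 and 0.0447) and MFN2 did not (adjusted p = 0.321).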

How the results depend on the processing

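All settings kept the sign of the 18 called genes, but the count of calls moved. Against 18 (6 higher, 12 lower), it was 80 with DESeq2 (48 and 32), 281 with no filter on low counts (115 and 166, among 41976 genes), 53 with the replicate block on 18 libraries (31 and 22), and 1 with only the 6 libraries compared, both with and without the block. It was 10 to 16 with 1 library left out, 14 without the control siRNA group, and 18 with DESeq2's size factors, a 1 CPM filter or mitochondrial genes left out of library sizes. Distinct list genes called were 11 in the main fit, 35 with no filter and 1 with only the 6 libraries, with or without the block. This count also moved in some other settings. Of the 13 mitochondrial mRNAs, 8 were called in the main fit and 10 with DESeq2. With the replicate block on 18 libraries it was 9, and with 1 library left out 5 to 9. The mitochondrial share differed by -1.20 percentage points, also over same-numbered pairs (replicate block, exact p = 0.25, the smallest possible). Genes differing between the lines numbered 3, or 11 with DESeq2 (1 of them a mitochondrial mRNA), 6 with no filter, 4 with the replicate block within lines and 3 to 16 with 1 library left out: 16 without IMR-90 siMAVS library 1, 8 without its library 2 or without IMR-90 siMFN1+2 library 2, and 7 without IMR-90 siMAVS library 3.

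Among genes that were not called, signs turned when 1 library was left out. The log2 fold change ranged from -0.32 to 0.10 for B2M, -0.000683 to 0.167 for CDKN1A, -0.30 to 0.21 for CXCL8, -0.46 to 0.19 for HLA-B, -0.33 to 0.25 for HLA-C, -1.94 to 0.43 for MKI67, -0.63 to 0.72 for MT-RNR1 and -0.15 to 0.33 for NGFR. With the replicate block HLA-B turned to 0.0301 on 18 libraries and, with only the 6 libraries, HLA-B to 0.12, MT-RNR1 to 0.0613 and B2M to 0.000588. The cause was not tested. The block kept all 18 calls and, beyond the 35 genes it added, changed no other. Depth limits IL6, CXCL8, MKI67 and TRNP1, all at a few CPM, and with 3 libraries a group the exact test cannot pass 0.05.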

Other observations

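With the replicate number as a block, 37 genes other than the silenced genes, the mitochondrial mRNAs and their nuclear copies were called, 30 of them higher with both mitofusins silenced. The 5 given here were chosen after their values were seen, and stand for no theme among the 37. NT5E, the ectoenzyme CD73 that makes adenosine, measured 179, 156 and 135 CPM against 101, 103 and 70 CPM (blocked log2 fold change 0.78 ± 0.14 SE, adjusted p = 0.032 with the block and 0.0609 without). ITGA6, the laminin-binding integrin alpha-6, measured 324, 298 and 247 CPM against 200, 225 and 118 CPM (adjusted p = 0.0382 with the block and 0.251 without). CD24, a surface glycoprotein, measured 75.6, 62.2 and 72.8 CPM against 49.7, 40.4 and 35.1 CPM (adjusted p = 0.0134 and 0.0632). TGFA, a ligand of the EGF receptor, measured 32.9, 31.4 and 26.6 CPM against 20.9, 21.8 and 12.8 CPM (adjusted p = 0.0382 and 0.119). In each of these 4 genes the groups did not overlap, and the third siMAVS library was the lowest of the 6. EMP1, an epithelial membrane protein, had the smallest adjusted p of the genes that the block added, 0.00421 against 0.118 without it, at 54.4, 38.1 and 44 CPM against 33.1, 24.3 and 23.1 CPM. With the block on only the 6 libraries compared it was not called, and that fit called only MFN2.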
